A study of Chlorocebus sabaeus with 10 samples.

Results

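The nuclear-encoded genes of the mitochondrial respiratory chain and of the ATP synthase were examined in liver biopsies of vervet monkeys fed a high fructose (HFr) diet or chow. The genes were taken from the deposited transcript table by symbol (NDUF genes, SDHA to SDHD, UQCR genes, CYC1, COX followed by a digit, and ATP5 genes), without the transcripts of the mitochondrial genome. This gave 76 genes with 1 transcript each, of 28078 transcripts in the table. By complex, 36 belonged to complex I, 1 to complex II, 7 to complex III, 20 to complex IV and 12 to complex V, the ATP synthase. They comprised 58 subunits or subunit isoforms and 18 assembly or accessory factors. NDUFA4 and NDUFA4L2 carry a complex I name and were placed in complex IV, where the NDUFA4 protein is now known to sit.

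The 10 animals were female and had eaten chow before the study. For 6 weeks 5 of them received the HFr diet and 5 stayed on chow, and each gave 1 liver biopsy and 1 library of polyadenylated RNA. The comparison asks how short exposure to dietary fructose acts on the liver, and p-values measure the spread between animals.

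The respiratory chain passes electrons from NADH and succinate, through complexes I and II, coenzyme Q, complex III and cytochrome c, to oxygen at complex IV. Complexes I, III and IV pump protons across the inner mitochondrial membrane, and the ATP synthase uses the resulting gradient to make ATP. The mitochondrial genome encodes a core part of complexes I, III, IV and V, whereas all subunits of complex II and the remaining subunits of the others come from nuclear genes. Hepatocytes depend on this machinery for gluconeogenesis, ureagenesis and lipid synthesis, and fructose phosphorylation draws on their ATP.

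Libraries held between 2977282 and 4992505 estimated counts, of which 864571 to 2657103 fell on nuclear transcripts. Mitochondrial transcripts took 41.8% to 67.8% of the counts on the HFr diet and 34.7% to 73.6% on chow. Hepatocyte markers (6 of 6 with counts) summed to between 32500 and 66091 normalized counts in every animal. Of the skeletal muscle markers, ACTA1 had 25 and TNNT3 had 7 counts over all libraries, and CKM, MYH2 and MB had no count in any library. Levels are given as normalized counts, in CPM after TMM scaling (trimmed mean of M values). Levels were not compared between genes, since the counts are not per length. In bulk tissue, fewer cells of a type and less RNA per cell cannot be told apart.

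HFr replicate 2 stood apart in these genes, a pattern singled out after the values were seen. It held the highest normalized count of all 10 animals for 31 of the 64 members that passed the filter on low counts, or 48.4%, against 10.02% of the 7948 transcripts that passed. Its median deviation from the gene means was 0.35 on the log2 scale over the members and 0.01 over all transcripts. Values without this animal are given beside the results it moved most.

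Across the 64 tested members, the diets could not be separated gene by gene. No member had an adjusted p under 0.05 in edgeR's quasi-likelihood test (smallest adjusted p = 0.9996, Benjamini-Hochberg), and 0% of all tested transcripts did. An unadjusted p under 0.05 was given to 2 members, 3.12%, both higher on the HFr diet, against 4.29% of all tested transcripts in either direction and 2.06% in that direction. In no member were all animals of one diet above all animals of the other, against 0.541% of all tested transcripts. The share of members called was thus near the background.

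The members leaned slightly upward. The log2 fold change (HFr over chow) was positive for 47 and negative for 17 members, that is 73.4% positive against 49.8% of all tested transcripts, and its median was 0.14 against -0.00069. Fold changes ranged from -0.36 to 0.62. Without HFr replicate 2 the median was 0.06 with 39 members positive, and no member had an unadjusted p under 0.05. The median standard error of a member was 0.19, against 0.25 for all transcripts, and the 95% interval lay within 1 log2 unit of no change for 61 of the 64 members and within 1.5-fold for 27.

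**Figure D1:**
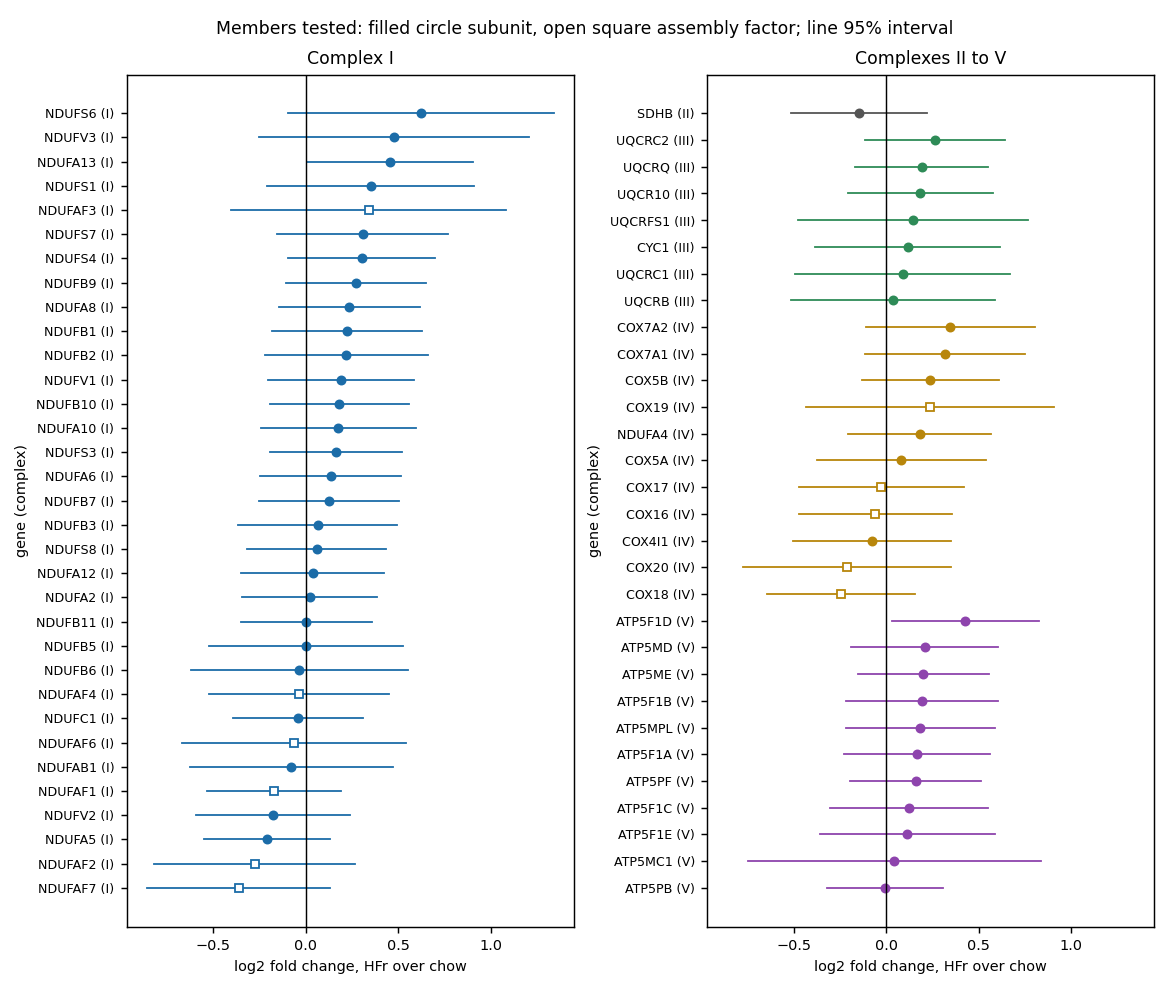
Log2 fold change (HFr over chow, n = 5 animals per diet) of 63 tested members, with complex I on the left and complexes II to V on the right. Points are edgeR estimates, lines are 95% intervals, circles are subunits and open squares are assembly factors. The subunits lie mostly right of 0, and only the intervals of NDUFA13 and ATP5F1D leave out 0.

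Subunits and assembly factors leaned to different sides. Of 53 tested subunits, 45 had a positive fold change (median 0.16), and of 11 tested assembly factors, 9 had a negative one (median -0.06). Among all tested transcripts 49.8% were positive. Over both classes together, the positive members went from 47 to 39 without HFr replicate 2. Counts for each class without that animal are not given. The difference between the classes was not tested, since genes are not replicates of a diet. The assembly factors with positive values were NDUFAF3 and COX19. Of 19 further assembly factors tested outside the members, 8 were positive and 11 negative.

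Complex I oxidizes NADH and reduces coenzyme Q. Of its 34 tested members 24 were positive, with a median of 0.13. That median was 0.05 without HFr replicate 2 and 0.06 without chow replicate 1. NDUFA13, an accessory subunit also known as GRIM-19, had normalized counts of 37.8, 71.5, 36.1, 52.1 and 44.4 in HFr replicates 1 to 5 and of 30.9, 45.2, 36.8, 33.6 and 29.7 in chow replicates 1 to 5. Every HFr animal lay above the chow mean, although chow replicate 2 was above HFr replicates 1, 3 and 5. The means were 48.4 ± 14.4 (SD, n = 5) and 35.2 ± 6.23 (SD, n = 5), a log2 fold change of 0.46 (SE 0.21, unadjusted p = 0.0458 and adjusted p = 0.9996 in edgeR's quasi-likelihood test). Without HFr replicate 2 the fold change was 0.27. The gene (ENSCSAG00000005084) lies on the plus strand of chromosome 6, listed from 17976547 to 17994969 in ChlSab1.1.

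NDUFS6, an accessory subunit of the NADH-binding module, had the largest fold change of all members at 0.62 (SE 0.33, unadjusted p = 0.0837, adjusted p = 0.9996, edgeR). HFr replicates 1 to 5 had 34.4, 37.7, 27.3, 37.1 and 8.45 normalized counts, and chow replicates 1 to 5 had 19.3, 13.5, 19.5, 14.1 and 27.8. Thus 4 HFr animals were above 4 chow animals, but HFr replicate 5 was the lowest of all 10 and chow replicate 5 lay among the HFr values. Without HFr replicate 5, singled out after its value was seen, the fold change was 0.87 (unadjusted p = 0.00176, edgeR). This was the smallest p of the 21 alternatives run. The unadjusted p was under 0.05 in 3 of them, and no adjusted p fell below 0.838. Without HFr replicate 2 the fold change was 0.51.

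The catalytic arm of complex I showed small fold changes with no unadjusted p under 0.05. NDUFV1, which binds FMN and takes the electrons of NADH, averaged 69.2 ± 11.4 on HFr and 60.8 ± 12.6 on chow (SD, n = 5), a log2 fold change of 0.19 (SE 0.18). NDUFS1, the largest iron-sulfur subunit, averaged 9.18 ± 2.23 and 7.11 ± 2.21, a fold change of 0.35 (SE 0.26). These differences were within the overlap of the animals. Of the subunits that carry iron-sulfur clusters towards the quinone site, NDUFS7 had a fold change of 0.31 (SE 0.22) and NDUFS8 one of 0.06 (SE 0.18). NDUFS8 became -0.03 without HFr replicate 4, so that its direction was not settled.

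The complex I member with the most counts, NDUFA5, an accessory subunit of the peripheral arm, had a negative fold change. Its normalized counts were 89.1, 92.7, 106, 85.0 and 76.6 in HFr replicates 1 to 5 and 106, 91.6, 114, 92.4 and 114 in chow replicates 1 to 5. Only HFr replicate 3 exceeded the chow mean, and the log2 fold change was -0.21 (SE 0.16, unadjusted p = 0.214, edgeR). The most negative member was the assembly factor NDUFAF7, a methyltransferase. HFr replicates 1 to 5 gave 6.74, 5.57, 8.01, 5.96 and 5.31 normalized counts against 7.49, 6.74, 7.10, 8.03 and 11.4 in chow replicates 1 to 5. No HFr animal reached the chow mean of 8.16 ± 1.88 (SD, n = 5), but chow replicate 5 was well above the other chow animals, and the fold change of -0.36 (SE 0.23, unadjusted p = 0.139, edgeR) rested on 16 to 39 counts per animal.

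Complex II, succinate dehydrogenase, also serves the citric acid cycle, and here it was represented by SDHB, its iron-sulfur subunit. SDHA, SDHC and SDHD were not analysed here. SDHB had 66.6, 69.3, 59.7, 65.3 and 96.1 normalized counts in HFr replicates 1 to 5 and 65.4, 80.9, 82.7, 80.8 and 86.7 in chow replicates 1 to 5. With the exception of HFr replicate 5 and chow replicate 1, the HFr animals lay below the chow animals. The means of 71.4 ± 14.2 and 79.3 ± 8.15 (SD, n = 5) gave a log2 fold change of -0.15 (SE 0.17, unadjusted p = 0.403, edgeR). Without HFr replicate 5 the fold change was -0.28 (unadjusted p = 0.109). SDHB counts included reads shared with other transcripts, as did those of ATP5MC1, NDUFA6, COX4I1, NDUFA4 and ATP5PB.

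**Figure D2:**
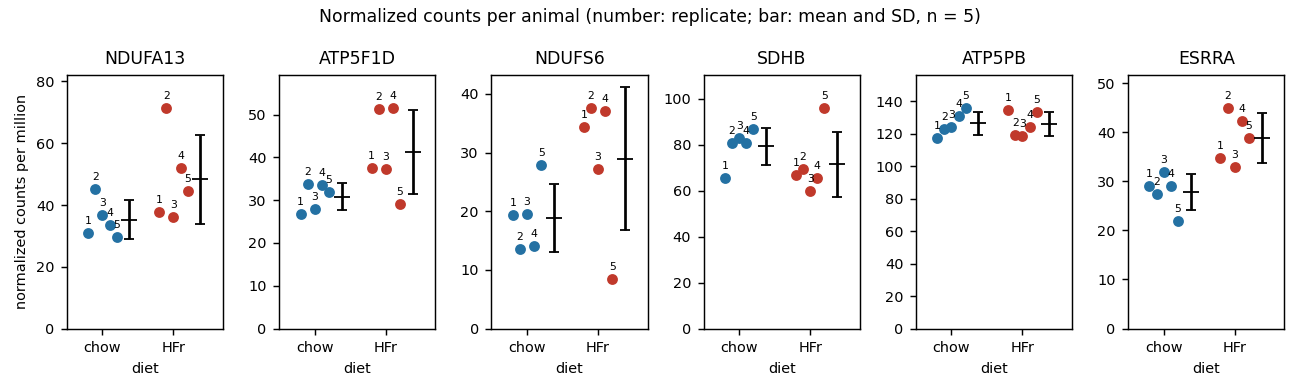
Normalized counts (CPM, axes from 0) of 5 members and of the regulator ESRRA in each animal. Points are animals numbered by replicate, and bars give the mean and SD of 5 animals. NDUFA13 and ATP5F1D overlap between the diets, NDUFS6 is split by HFr replicate 5, SDHB runs lower in 4 HFr animals, ATP5PB varies little, and ESRRA does not overlap.

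Complex III transfers electrons from coenzyme Q to cytochrome c. All 7 members had positive fold changes, from 0.04 for UQCRB to 0.26 for UQCRC2, with a median of 0.15, and none had an unadjusted p under 0.05. This direction depended on HFr replicate 2, which had the highest value of all animals in 6 of the 7 genes, and without it the median was -0.10. UQCRFS1, the Rieske iron-sulfur protein, had 29.6, 59.5, 28.9, 37.3 and 21.8 normalized counts in HFr replicates 1 to 5 and 25.6, 38.9, 49.2, 22.6 and 21.9 in chow replicates 1 to 5. The diets covered the same range, and the log2 fold change of 0.15 (SE 0.29) became -0.13 without HFr replicate 2. CYC1, the cytochrome c1 subunit, had 64.6 normalized counts in HFr replicate 2 against 27.3 to 46.4 in the other HFr animals and 27.4 to 47.0 on chow. Its fold change of 0.12 (SE 0.23) became -0.10 without that animal. The core protein UQCRC1 went from 0.09 (SE 0.27) to -0.10, and UQCRB, which binds near the quinone site, from 0.04 (SE 0.26) to -0.17.

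The remaining complex III genes were steadier. UQCRC2, the second core protein, had 17.2, 20.3, 16.03, 16.8 and 14.3 normalized counts in HFr replicates 1 to 5 and 15.9, 15.4, 13.8, 10.04 and 14.6 in chow replicates 1 to 5. Every HFr animal was above the chow mean of 14.0 ± 2.33 (SD, n = 5), and the fold change was 0.26 (SE 0.18, unadjusted p = 0.159, edgeR). UQCRQ, a small subunit with the most counts of this complex, averaged 254 ± 18.4 on HFr and 222 ± 31.8 on chow (SD, n = 5), with every HFr animal above the chow mean and a fold change of 0.19 (SE 0.17). Both stayed positive when any single animal was left out.

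**Figure D3:**
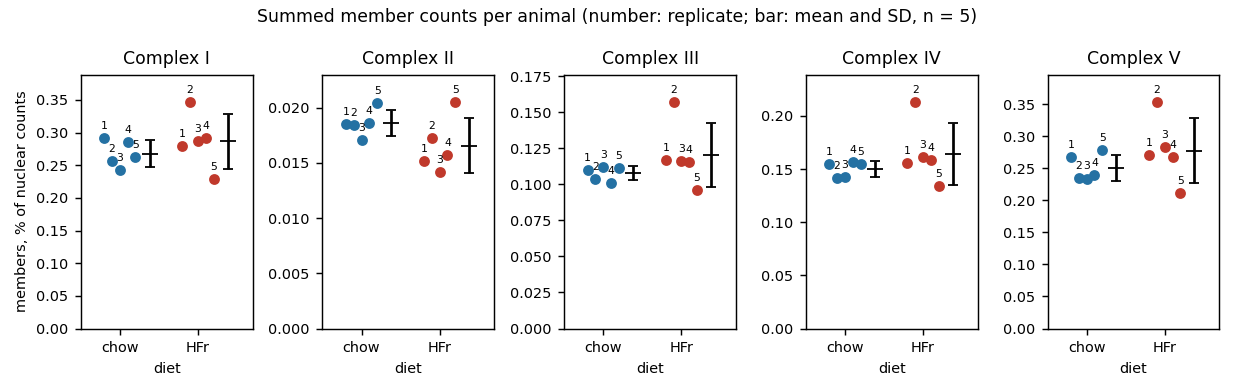
Estimated counts summed over the members of each complex, as a percent of each animal's nuclear counts (axes from 0). Points are animals numbered by replicate, and bars give the mean and SD of 5 animals. HFr replicate 2 is the highest and HFr replicate 5 the lowest animal in complexes I, III, IV and V, while complex II is highest in HFr replicate 5.

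Summed over all 76 genes, the members took 0.838%, 1.09%, 0.861%, 0.849% and 0.692% of the nuclear counts in HFr replicates 1 to 5. The corresponding shares in chow replicates 1 to 5 were 0.841%, 0.755%, 0.748%, 0.801% and 0.828%. The HFr animals thus spread on both sides of the chow animals, with a mean of 0.866% ± 0.142 against 0.795% ± 0.0420 (SD, n = 5), and without HFr replicate 2 the HFr mean was 0.810% ± 0.0793 (SD, n = 4). The same animals were highest and lowest in complexes I, III, IV and V. Complex I took 0.287% ± 0.0421 on HFr and 0.268% ± 0.0206 on chow, complex IV 0.165% ± 0.0293 and 0.150% ± 0.00736, and complex V 0.277% ± 0.0506 and 0.250% ± 0.0206 (SD, n = 5 each). SDHB alone took 0.0166% ± 0.00248 and 0.0186% ± 0.00118. It was the one complex in which HFr replicate 5 was the highest of the HFr animals.

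Complex IV, cytochrome c oxidase, reduces oxygen to water. Of its 11 tested members 6 were positive, with a median of 0.08, and none had an unadjusted p under 0.05. Of these, 5 of 6 structural subunits were positive and 4 of 5 assembly factors negative, which is part of the split given above for all complexes. COX4I1, the ubiquitous isoform of the largest nuclear subunit, averaged 101.1 ± 20.1 on HFr and 107 ± 23.0 on chow (SD, n = 5), a fold change of -0.08 (SE 0.20), which became 0.02 without chow replicate 2. COX5A, a subunit facing the matrix, had a fold change of 0.08 (SE 0.21), which became -0.14 without HFr replicate 2. NDUFA4 had the most counts of this complex and averaged 119 ± 23.0 and 105 ± 15.6, a fold change of 0.18 (SE 0.18) that was 0.06 without HFr replicate 2. The most negative member was COX18, which inserts the COX2 subunit into the membrane, at -0.24 (SE 0.19, unadjusted p = 0.213, edgeR).

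No difference between the diets was detected in the isoform use of complex IV. COX7A1 is best known as the isoform of heart and skeletal muscle and COX7A2 as the isoform found in most tissues, and both were counted in every liver. COX7A1 had 103, 96.3, 108, 108 and 75.1 normalized counts in HFr replicates 1 to 5 and 71.3, 71.4, 55.9, 114 and 81.7 in chow replicates 1 to 5. Most HFr animals were above most chow animals, but chow replicate 4 was the highest of all. COX7A2 had 105, 126, 85.0, 77.9 and 57.2 on HFr against 60.4, 58.7, 80.5, 74.3 and 81.2 on chow. The fold changes were 0.32 (SE 0.20, unadjusted p = 0.135) for COX7A1 and 0.35 (SE 0.21, unadjusted p = 0.126) for COX7A2, the highest of complex IV (edgeR).

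The percent of the counts of this pair that came from COX7A1 was 49.6, 43.2, 55.9, 58.0 and 56.8 in HFr replicates 1 to 5 and 54.1, 54.8, 41.0, 60.5 and 50.1 in chow replicates 1 to 5. The lowest share, in chow replicate 3, had a 95% interval of 37.4 to 44.6 and the highest, in chow replicate 4, one of 55.4 to 65.5 (Clopper-Pearson, counting error only), so that the chow animals bracketed the HFr animals. The means were 52.7% ± 6.22 and 52.1% ± 7.25 (SD, n = 5), and the difference of 0.57 percentage points had p = 0.897 in a two-sided exact permutation test (252 assignments, adjusted p = 0.897 over the 2 pairs tested). The difference ranged from -2.21 to 2.94 when each animal was left out. Skeletal muscle markers (2 of the 5 in the table with a count) summed to 0.374 to 2.004 normalized counts on HFr and 0.435 to 2.72 on chow.

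The other restricted isoforms were rare. COX4I2, an isoform of lung and of low oxygen, had 11 counts over the 10 libraries against 4054 of COX4I1, and its share of the pair was 0.140% ± 0.229 on HFr and 0.365% ± 0.445 on chow (SD, n = 5), a difference of -0.23 percentage points (two-sided exact permutation test, p = 0.405, adjusted p = 0.810 over the 2 pairs). Without chow replicate 1 the difference was -0.045 percentage points. NDUFA4L2, induced by low oxygen, had 8 counts over all libraries. COX6A2, a muscle isoform, had 3 counts, and the testis isoforms COX7B2 and COX8C had 0. These genes were among the 12 members that did not pass the filter on low counts, together with COX10, COX11, COX14, COX15, NDUFAF5, NDUFAF8 and ATP5S, which are assembly or accessory factors. No diet fold change is given for them.

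Complex V turns the proton gradient into ATP through a rotating ring and stalk below a catalytic head. Of its 11 tested members 10 were positive, with a median of 0.17, which was 0.07 without HFr replicate 2 and 0.11 without chow replicate 1. ATP5F1D, the delta subunit of the central stalk, had 37.4, 51.2, 37.3, 51.6 and 29.1 normalized counts in HFr replicates 1 to 5 and 26.8, 33.7, 28.1, 33.6 and 31.9 in chow replicates 1 to 5. HFr replicates 1 to 4 were above all chow animals and HFr replicate 5 fell among them. The means were 41.3 ± 9.83 and 30.8 ± 3.22 (SD, n = 5), a log2 fold change of 0.43 (SE 0.19, unadjusted p = 0.0364, adjusted p = 0.9996, edgeR), which was 0.34 without HFr replicate 2. The gene (ENSCSAG00000012269) lies on the plus strand of chromosome 6, listed from 1010265 to 1013003 in ChlSab1.1.

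Fold changes of the catalytic head were smaller. ATP5F1A, the alpha subunit, had 147, 246, 176, 191 and 148 normalized counts in HFr replicates 1 to 5 and 149, 178, 164, 141 and 175 in chow replicates 1 to 5, so that HFr replicates 2 and 4 were the high animals and the others overlapped with chow. Its fold change was 0.17 (SE 0.18). ATP5F1B, the catalytic beta subunit, averaged 230 ± 51.9 and 201 ± 27.2 (SD, n = 5), a fold change of 0.19 (SE 0.19). Without HFr replicate 2 the fold change was 0.04 for ATP5F1A and 0.06 for ATP5F1B. The epsilon subunit ATP5F1E had the most counts of any member, with means of 274 ± 56.8 and 253 ± 66.9, and chow replicate 5 was its highest animal at 364.

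ATP5PB, the b subunit of the peripheral stalk that holds the head in place, varied little between animals. It had 134, 119, 119, 124 and 133 normalized counts in HFr replicates 1 to 5 and 117, 123, 124, 131 and 136 in chow replicates 1 to 5, a log2 fold change of -0.0040 (SE 0.15, 95% interval -0.32 to 0.31). Of the 53 members with a mean of at least 50 counts it had the smallest spread between animals within a diet, with an SD of 0.084 on the log2 scale, and NDUFS6 had the largest at 0.70. The median was 0.27 for these members and 0.32 for the 4175 nuclear transcripts at the same minimum. ATP5MC1, a gene of the rotating c ring, lay at the other end of precision, with 5.56 to 66.9 estimated counts per animal and a fold change of 0.05 (SE 0.37) that became -0.38 without HFr replicate 2.

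**Figure D4:**
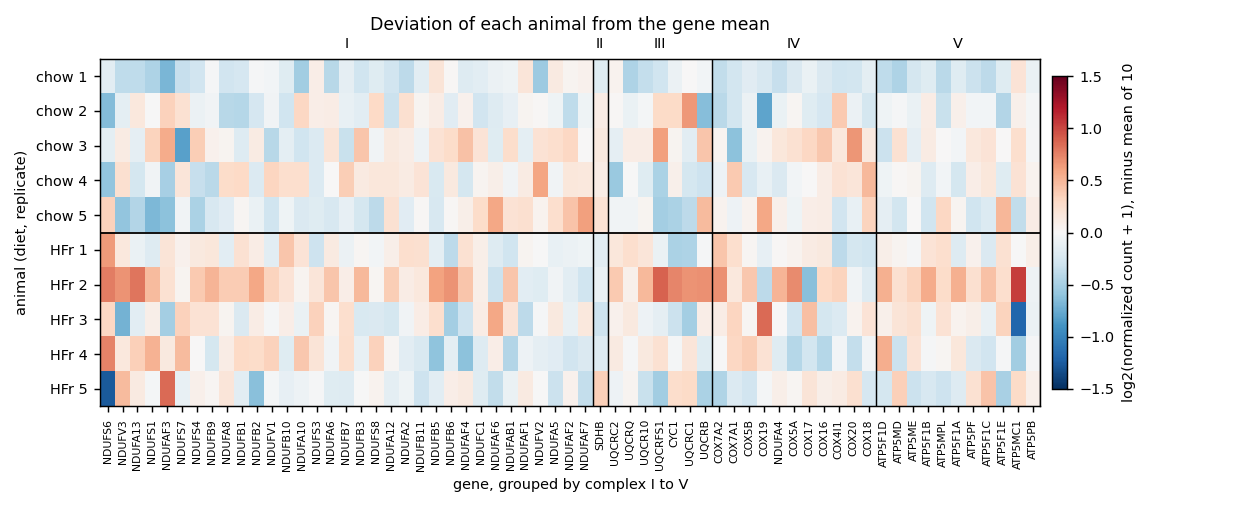
Deviation of each of the 10 animals (rows) from the gene mean, in log2(normalized count + 1), for 63 tested members (columns), grouped by complex and ordered by fold change within each. Red is above and blue below the mean. HFr replicate 2 is red in most columns, and chow replicate 1, which held the lowest value in 15 members and the highest in 0, is mostly blue.

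Single animals differed from the rest along the whole gene set. HFr replicate 2 held the highest value in 15 of 34 members of complex I, 6 of 7 of complex III, 4 of 11 of complex IV and 6 of 11 of complex V, but not in SDHB. Chow replicate 1 held the lowest value in 15 members, 23.4% against 9.76% of all tested transcripts, and was above the gene mean in 10 of 64. This animal also had the lowest summed level of the hepatocyte markers (6 of 6 with counts), 32500 CPM against 37421 to 58623 in the HFr animals and up to 66091 in the other chow animals. It had the highest sum of the stellate cell and fibroblast markers (6 of 6), 774 CPM against 196 to 379 in the HFr animals and 160 to 650 in the other chow animals. Its cholangiocyte marker sum (4 of 4) was also the highest, 31.6 CPM against 5.96 to 26.5 in the HFr animals. These marker sums carry the same TMM scaling as the member values, so they are not independent of them. The part of these cell types in the member values of chow replicate 1 was not tested. The other chow animal with a strong tendency was chow replicate 3, above the mean in 43 of 64. The tendencies of these 2 chow animals held on the TMM scale only. As a percent of nuclear counts, the members took 0.841% in chow replicate 1, the highest chow share. In chow replicate 3 they took 0.748%, the lowest. The range of the median deviation was -0.19 to 0.35 over animals. HFr replicate 2 had 41.8% mitochondrial counts and chow replicate 1 had 57.1%, both within the range of the other animals.

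After the diet means were removed, members tended to vary together between animals. Over the 1378 pairs of the 53 members with a mean of at least 50 counts the median correlation was 0.19, with 67.9% of pairs positive, against a median of 0.0028 over all pairs of the 4175 nuclear transcripts at that minimum. Pairs of subunits had medians of 0.20 within a complex and 0.23 between complexes, and of 0.11 and 0.10 without HFr replicate 2. Pairs of a subunit and an assembly factor had 0.02. The few factors in these pairs differed, with median correlations to the other members of -0.24 (NDUFAF1), -0.23 (COX17), 0.07 (COX18), 0.23 (NDUFAF4) and 0.33 (COX16). Without HFr replicate 2 the median over members was 0.10, with 57.3% positive. These are descriptions over 10 libraries that share depth and scaling among their genes, with no test. The members most in step with the others were NDUFA6 (median correlation 0.44) and UQCR10 (0.43), and NDUFAF1 (-0.24) and COX17 (-0.23) were least so.

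The mitochondrial genome encodes the partners of these subunits, and their transcripts varied widely against those of the nucleus. The ratio of COX1 counts to COX4I1 counts was lowest in HFr replicate 2 (721) and highest in HFr replicate 3 (3359) on the HFr diet, and lowest in chow replicate 2 (515) and highest in chow replicate 4 (3301) on chow. CYTB to CYC1, the pair of complex III, ran from 500 to 3053 on HFr and 554 to 4277 on chow, and ATP6 to ATP5F1A, the pair of complex V, from 66.4 to 296 and 80.6 to 475. The ranges of the diets overlapped for each pair. These ratios compare the same transcripts between animals, and their size says nothing of protein.

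Of the 13 mitochondrially encoded subunits 12 were tested (ATP8 was not analysed here), and 0 had an adjusted p under 0.05 (edgeR). Fold changes were positive for 2 and negative for 10, with a median of -0.15. Apart from ND3 they ran from -0.34 to 0.20, with standard errors of 0.46 to 0.56. Most of these transcripts rose and fell together between animals, so their directions were not separate observations. The mitochondrial share of counts averaged 55.5% ± 11.8 on HFr and 55.4% ± 16.5 on chow (SD, n = 5). ND3, a membrane subunit of complex I, was the only 1 of the 12 with an unadjusted p under 0.05, against 4.29% of all tested transcripts. It had 1172, 338, 1381, 637 and 828 normalized counts in HFr replicates 1 to 5 and 616, 1611, 2252, 1427 and 7287 in chow replicates 1 to 5. Chow replicate 5 alone was more than the 5 HFr animals together, and chow replicate 1 lay below 4 of them. The log2 fold change was -1.60 (SE 0.56, unadjusted p = 0.0127, adjusted p = 0.9996, edgeR), and -0.77 (unadjusted p = 0.0874) without chow replicate 5.

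To ask whether the nuclear members followed the mitochondrial share, their counts were scaled to nuclear transcripts alone and fitted with edgeR's quasi-likelihood test on the mitochondrial percent, with diet as a further term. Of 65 members in this fit, 0 had an adjusted p under 0.05, against 0.505% of 8324 nuclear transcripts, and 9 (13.8%) had an unadjusted p under 0.05, against 12.6%. The members were thus close to the background. Their median slope was -0.04 on the log2 scale for each 10 percentage points of mitochondrial share (0.0028 over all nuclear transcripts), and 36 of 65 slopes were negative. Among the 9 members, 5 had a negative and 4 a positive slope.

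The negative slopes with the smallest p-values belonged to complex III and to complex I assembly. UQCRC1 had 61.3, 62.7, 34.1 and 47.1 CPM of the TMM-scaled nuclear counts in the 4 animals with a mitochondrial share under 50% (chow replicate 2, HFr replicate 2, chow replicate 3 and HFr replicate 5), and 26.4 to 43.9 in the other 6. Its slope was -0.27 (SE 0.08, unadjusted p = 0.00457, adjusted p = 0.179, edgeR). NDUFAF3, an early assembly factor of complex I, had a slope of -0.36 (SE 0.11, adjusted p = 0.179), UQCRFS1 one of -0.25 (SE 0.09, adjusted p = 0.287) and CYC1 one of -0.19 (SE 0.08, adjusted p = 0.298).

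Positive slopes were led by COX19, a copper-handling assembly factor of complex IV, at 0.27 (SE 0.10, adjusted p = 0.298, edgeR). COX7A1 followed at 0.16 (SE 0.06, adjusted p = 0.306) and NDUFAF6, an assembly factor of complex I, at 0.23 (SE 0.09, adjusted p = 0.328). Over the alternatives run, UQCRC1, NDUFAF3, UQCRFS1, COX19, COX7A1 and NDUFAF6 each kept the sign of the slope. No adjusted p of these fell below 0.108.

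**Figure D5:**
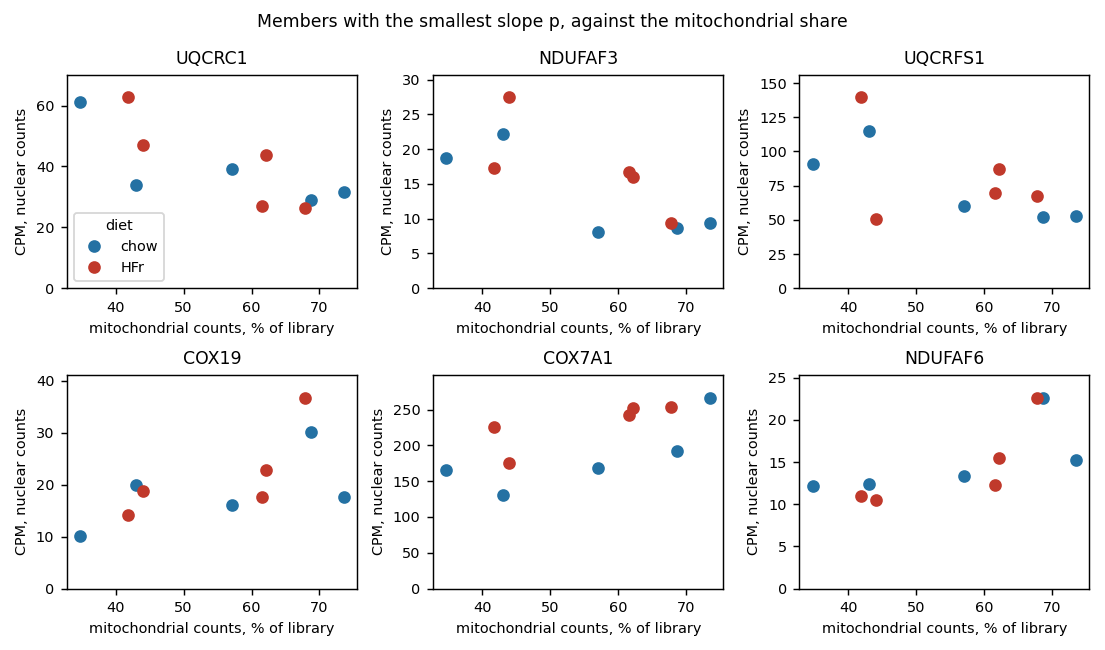
CPM of the TMM-scaled nuclear counts of 6 members in each animal (axis from 0) against the percent of the library's counts from mitochondrial transcripts, with diets in color. Fitted slopes are negative for UQCRC1, NDUFAF3 and UQCRFS1 and positive for COX19, COX7A1 and NDUFAF6, single animals depart from them (UQCRFS1 was lowest in HFr replicate 5), and no adjusted p was under 0.05.

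Other genes of the pathway were taken from lists written from general knowledge. Of 38 further assembly factors 31 were in the table and 19 were tested, with 8 positive and 11 negative fold changes, a median of -0.07 and 0 unadjusted p under 0.05 (edgeR). FOXRED1, which helps to build complex I, had the highest at 0.49 (SE 0.23, unadjusted p = 0.0522) and TIMMDC1, another complex I factor, the lowest at -0.63 (SE 0.33, unadjusted p = 0.0742). Among all tested transcripts 49.8% had a positive fold change, so the split of this list lay near the background.

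Mobile carriers and enzymes linked to coenzyme Q had mostly positive fold changes, with 10 of 12 tested genes positive and a median of 0.15. The positive share over all tested transcripts was 49.8%. Again 0 had an unadjusted p under 0.05 (edgeR), against 4.29% of all tested transcripts. ETFB, a subunit of the flavoprotein that receives electrons from fatty acid oxidation, had 190, 186, 142, 192 and 110 normalized counts in HFr replicates 1 to 5 against a range of 104 to 147 on chow. In 3 HFr animals it exceeded every chow animal, and its fold change was 0.41 (SE 0.19, unadjusted p = 0.0523). ETFDH, which hands these electrons to coenzyme Q, had a fold change of 0.37 (SE 0.21, unadjusted p = 0.0939). HFr replicate 2 was its highest animal, at 133 normalized counts.

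Of 13 regulators of mitochondrial genes 8 were tested, 4 positive and 4 negative, and 1 had an unadjusted p under 0.05, against 4.29% of all tested transcripts. ESRRA encodes an orphan nuclear receptor that drives transcription of oxidative phosphorylation genes. It had 34.8, 45.0, 32.9, 42.4 and 38.9 normalized counts in HFr replicates 1 to 5 and 29.1, 27.4, 31.9, 29.1 and 21.9 in chow replicates 1 to 5. All HFr animals were above all chow animals, and 0.541% of all tested transcripts had groups that did not overlap. The means were 38.8 ± 5.06 and 27.9 ± 3.70 (SD, n = 5), a log2 fold change of 0.47 (SE 0.16, unadjusted p = 0.0103, adjusted p = 0.9996, edgeR). PPARGC1A, the coactivator of ESRRA, had 42.3, 88.0, 50.1, 8.16 and 8.65 normalized counts on HFr and 28.4, 9.14, 47.9, 20.1 and 38.3 on chow. It was highest in HFr replicate 2, the animal whose members took the largest share of nuclear counts, and its fold change of 0.44 (SE 0.58) became -0.12 without that animal. Any part of these regulators in the members' levels was not tested.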

How the data were processed

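RNA-Seq libraries of 10 vervet livers (5 HFr, 5 chow) were analysed. The authors aligned paired-end reads to ChlSab1.1, annotated them with Ensembl release 93 and deposited estimated counts per transcript from expectation-maximization in Partek Flow, which shares reads between overlapping transcripts. The deposited normalized signal is the same counts scaled by TMM and was used in 1 alternative. Estimated counts were rounded and transcripts filtered with filterByExpr (minimum count 10, minimum total 15). Diets were compared with edgeR 4.0.16 (quasi-likelihood, TMM, diet as the only term, R 4.3.3), with Benjamini-Hochberg adjustment over all 7948 transcripts and a threshold of 0.05. The standard error is the log2 fold change divided by the square root of F. The biological coefficient of variation was 29.0%. The slope on the mitochondrial percent was fitted to 8324 nuclear transcripts. Shares of isoform pairs were compared with two-sided exact permutation tests (scipy 1.17.1) for pairs whose rarer isoform had at least 10 counts. The procedure was tested on simulated data.

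Members and lists were chosen with earlier results of these data known. Genes named are members with an unadjusted p under 0.05, members without overlap between diets, the member of each complex with the most counts and those with the highest and lowest fold change, catalytic and c-ring subunits, isoform pairs, and the 3 smallest slope p-values in each direction. Genes of the other lists are named where their p, fold change or role singled them out, after the values were seen. The symbols matched 72 of 103 that fit the same pattern in the RefSeq gene list of the species. Totals include 1 tested member whose own values are left out. No sequence is printed. Alternatives were DESeq2 1.42.0, limma 3.58.1, other scalings and filters, sums by gene symbol, the study's equal-variance test, the mitochondrial percent as covariate, a replicate block, and leaving out each animal.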

Additional observations from a re-analysis of the deposited data

Results flagged for a closer look

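In 80 groups of 5 animals examined for an animal far from the rest (gap to the nearest animal over 0.71 of the group's range), 3 were found, and chance flags about 1 in 20 groups. SDHB in HFr replicate 5 had 96.1 normalized counts, against 59.7 to 69.3 in the other HFr animals. SDHB in chow replicate 1 had 65.4, against 80.8 to 86.7 in the other chow animals. NDUFAF7 in chow replicate 5 had 11.4, against 6.74 to 8.03. HFr replicate 5 was also the lowest HFr animal in complexes I, III, IV and V, summed as a percent of nuclear counts. On the TMM scale, chow replicate 1 was the animal most often lowest among the members. Its members' percent of nuclear counts, 0.841%, was however the highest on chow. The reasons were not tested.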

How the results depend on the processing

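No member had an adjusted p under 0.05 in any of the 21 alternatives to the diet comparison or the 17 to the slope. The number with an unadjusted p under 0.05, 2 of 64, was 0 with library size only and with limma, 5 with the equal-variance test and 1 with a replicate block, and 0 to 3 when each animal was left out, with 0 without HFr replicate 2, HFr replicate 4 or chow replicate 1, 1 without chow replicate 3 or 5, and 3 without HFr replicate 5. Over all transcripts the 341 became 124 with library size only, 756 with counts above 0 in any animal and 633 with the equal-variance test, and adjusted calls were 2 with DESeq2 and 1 with library size only. The filter on any count and the equal-variance test were not limited to the 7948 transcripts or the 64 members. Their numbers are thus not counts out of the same sets. The member median kept its sign throughout (0.06 to 0.17). Leaving out each animal gave medians of -0.10 to 0.24 for complex III, where HFr replicate 2 decided the sign, and of -0.0077 to 0.17 for complex IV. For the other pathway genes, 2 with an unadjusted p under 0.05 became 1 with library size only or with nuclear transcripts only, 4 with the mitochondrial percent as covariate or the equal-variance test, and 1 to 5 when each animal was left out.

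For the slope, the 9 members with an unadjusted p under 0.05 became 3 with the replicate block and 4 to 11 when each animal was left out (4 without HFr replicate 2 or chow replicate 5), and the 42 adjusted calls over all nuclear transcripts became 19 with the block and 0 (without chow replicate 2) to 44. No pairing of animals by replicate number was visible. The correlations of the deviations ran from -0.30 to 0.11, and 0 animals of 5 numbers matched best with their own. Such a check cannot exclude a pairing in the design. The fold change of ATP5MC1 turned to -0.012 with the mitochondrial covariate, -0.15 with limma, -0.12 with the equal-variance test and -0.10 with the block, and that of ATP5PB to 0.00449 with library size only, 0.00654 with at least 10 counts in every animal and 0.031 with the equal-variance test. Leaving out each animal gave -0.38 to 0.24 for ATP5MC1, -0.036 to 0.019 for ATP5PB, -0.0077 to 0.44 for COX19, -0.18 to 0.022 for COX4I1, -0.14 to 0.18 for COX5A, -0.10 to 0.22 for CYC1, -0.27 to 0.10 for NDUFAF6, -0.034 to 0.15 for NDUFS8, -0.12 to 0.73 for PPARGC1A, -0.17 to 0.16 for UQCRB, -0.10 to 0.32 for UQCRC1 and -0.13 to 0.36 for UQCRFS1, and -2.21 to 2.94 percentage points for the COX7A1 share. The causes were not tested. Nuclear depth and 5 animals per diet limit precision, and 12 members with few counts were not tested.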
